A study of Homo sapiens with 8 samples.

Results

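Occupancy by the YAP, TAZ and TEAD proteins was described around 9 genes of the actin cytoskeleton in HuCCT1, a human bile duct cancer (cholangiocarcinoma) cell line. The genes were TPM1, TPM2, TPM4, ACTN1, ACTN4, FLNA, PALLD, VCL and MYL9. They were selected by name with earlier results of these peak lists in view, and their peaks were chosen by position, as those with a centre within 100 kb of 1 start site per gene on the hg19 build. This gave 123 peaks of the 51828 in 5 deposited lists. The TEAD1 list gave 77 of its 38186 peaks, the TEAD4 list 41 of 12188 and the HA-YAP5SA list 5 of 847. None of the 454 YAP peaks and none of the 153 TAZ peaks fell in any of the 9 windows.

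Chromatin immunoprecipitation and sequencing (ChIP-seq) had been done with 1 library per antibody, against TEAD1, TEAD4, TAZ, YAP or, for HA-YAP5SA, the HA tag. YAP5SA is a form of YAP whose serine targets of the LATS kinases are changed to alanine. How cells came to carry the tagged form is not given in the labels, and all libraries came from this 1 cell line. Input, IgG and GFP libraries were background controls and were not analysed here. No difference between lists or loci has a replicate check, and the depth of the libraries is unknown.

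YAP and TAZ are transcriptional coactivators that are restrained by the Hippo kinases and reach DNA mainly through the TEAD factors. Tension in actin filaments is one of the signals known to move YAP and TAZ into the nucleus, so genes that build contractile filaments stand close to the pathway's input. The 9 genes cover several roles in those filaments. Tropomyosins (TPM1, TPM2, TPM4) are coiled coils that lie along the filament, alpha-actinins (ACTN1, ACTN4) and filamin A (FLNA) cross-link filaments, and palladin (PALLD) is a scaffold that binds actin and alpha-actinin. Vinculin (VCL) ties filaments to focal adhesions and cell junctions, and MYL9 is a regulatory light chain of myosin II, the motor that pulls on them.

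The 9 windows differed widely in how many TEAD peaks they held. PALLD had 20 TEAD1 peaks, TPM1 13, ACTN1 10, TPM2 9, ACTN4 8, VCL 7, MYL9 5, FLNA 3 and TPM4 2. TEAD4 peaks numbered 8 at PALLD, 7 at ACTN1, 5 at TPM1, 5 at TPM2, 4 each at ACTN4, VCL and FLNA, 3 at MYL9 and 1 at TPM4. FLNA was the single locus with more TEAD4 than TEAD1 peaks. By counts over the 5 lists the closest pairs were ACTN4 with VCL and ACTN4 with TPM2, which differed by 2 peaks in all.

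**Figure D1:**
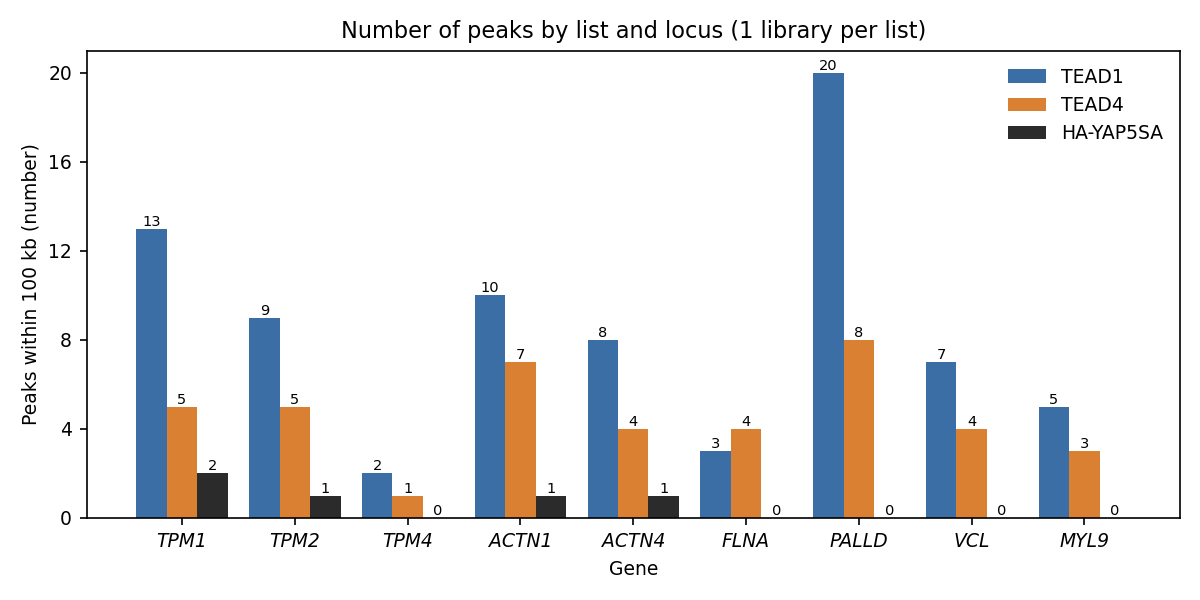
Number of peaks with a centre within 100 kb of each start site (y axis) for the 9 genes (x axis), in bars for the TEAD1, TEAD4 and HA-YAP5SA lists, with 1 library per list and no error to show. TEAD1 counts run from 2 at TPM4 to 20 at PALLD, and HA-YAP5SA peaks stand at TPM1, TPM2, ACTN1 and ACTN4.

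For scale, chromosomes 1 to 22 and X were divided into 15176 tiles of 200 kb, the width of a window. All 9 windows held a TEAD1 peak and a TEAD4 peak, as did 67.5% and 38.9% of tiles. The median tile held 2 TEAD1 peaks (interquartile range 0 to 4). More than 2 were found in 38.3% of tiles and in 8 of the 9 windows. At least as many TEAD1 peaks as at PALLD were found in 0.0659% of tiles, as many as at TPM1 in 0.955%, as many as at ACTN1 in 3.23% and as many as at TPM4 in 50.8%. PALLD and TPM1 were therefore in the sparse upper tail of the tiles, and TPM4 and FLNA near the middle. Tiles include gene-poor stretches and gaps in the assembly while the windows are set on genes, and the genes were chosen with these lists in view. The tile shares therefore describe the windows and test nothing.

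**Figure D2:**
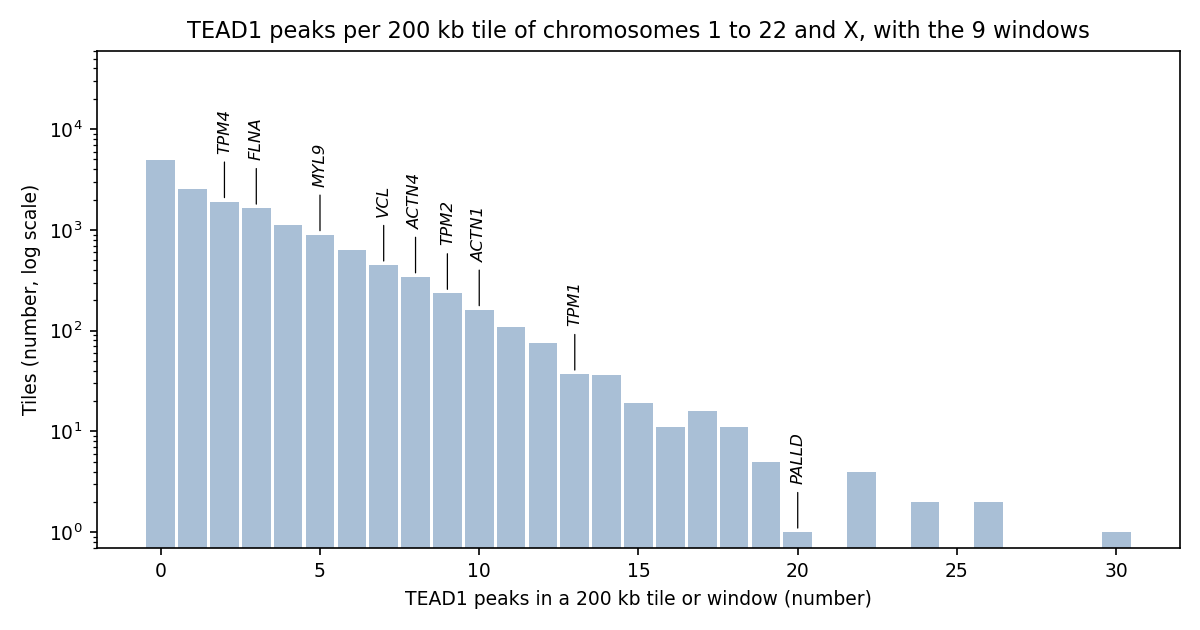
Number of 200 kb tiles (y axis, log scale) by the number of TEAD1 peaks they hold (x axis), with the count of each of the 9 windows marked by its gene name. The names run from TPM4 at 2 peaks, the median of all tiles, to PALLD at 20.

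HA-YAP5SA peaks were present at 4 of the 9 loci, TPM1, TPM2, ACTN1 and ACTN4, while 4.94% of tiles held one. The other 5 loci, TPM4, FLNA, PALLD, VCL and MYL9, had none. PALLD, with the most TEAD peaks, was 288.0 kb from the nearest HA-YAP5SA peak. YAP and TAZ peaks were absent from 9 of 9 windows, and 0.883% and 0.323% of tiles held one, so that absence is the usual state of a window of this size. Over the whole TEAD1 list, 0.21% of the 38186 peaks overlapped YAP and none overlapped TAZ. The nearest YAP peak lay 1917 kb from the PALLD start site and at least 5340 kb from the others, and there was none on the chromosome of TPM1.

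The windows are drawn by distance, and the peaks at their edges show what the limit decided. The outermost TEAD1 peak inside lay 98.7 kb from VCL (score 934.5). At ACTN1, a TEAD4 peak 99.986 kb upstream (chr14:69545645-69546493, score 799, rank 293) was inside. The TEAD1 peak it overlapped (chr14:69545650-69546583, score 1927, rank 144 of the TEAD1 list) was outside, with its centre at 100.03 kb. The HA-YAP5SA peak at the same site (chr14:69545970-69546242, score 223, rank 124) was outside as well, at 100.02 kb. Counting peaks with any base within 100 kb raised ACTN1 from 10 to 11 TEAD1 peaks and from 1 to 2 HA-YAP5SA peaks. The next TEAD4 peak outside lay 101.5 kb from VCL (score 108). The outermost HA-YAP5SA peak inside was 65.4 kb from TPM1.

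**Figure D3:**
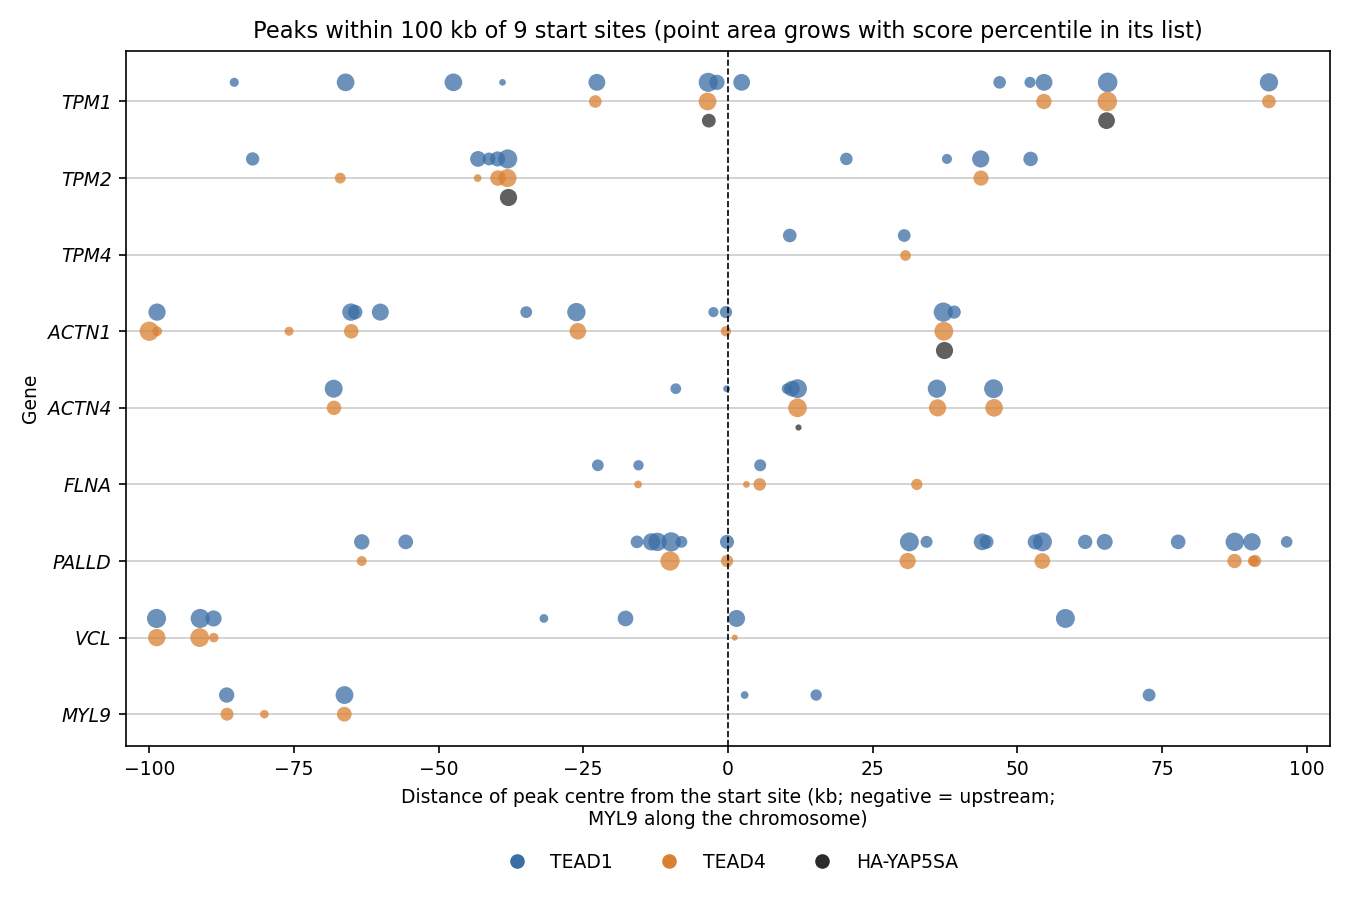
Position of every TEAD1, TEAD4 and HA-YAP5SA peak relative to the start site of its gene (x axis, kb, negative values upstream; along the chromosome for MYL9), 1 row per gene, with point area growing with the percentile of the score in its own list. HA-YAP5SA points lie under pairs of TEAD1 and TEAD4 points, and PALLD and TPM1 carry the densest rows of TEAD1 points.

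Scores are the authors' own values per peak, on a scale that is not stated, and were used to rank peaks within a list. All lists begin near 80. Distances run from the start site to the centre of the peak, upstream or downstream by the strand of the gene in RefSeq. For MYL9, positions are along the chromosome.

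Among the tropomyosins, TPM1 had the strongest site of all 9 loci. Its top TEAD1 peak (chr15:63400049-63400876, score 3140) ranked 3 in the whole TEAD1 list and lay 65.6 kb downstream of the start site (chr15:63334838). The TEAD4 peak there (chr15:63400052-63400734, score 1822) ranked 14 of 12188. The HA-YAP5SA peak on the same site (chr15:63400131-63400404, score 158) ranked 246 of 847. The HA-YAP5SA peak was thus above the median of its list (114) and outside its top 10%. In the RefSeq gene order LACTB, a mitochondrial protein gene, is the next protein-coding gene on that side, and which gene the site serves was not tested.

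TPM1 also had a group of 3 TEAD1 peaks around its start, from 3.40 kb upstream to 2.38 kb downstream. The first of them (chr15:63331067-63331806, score 937, rank 1704) overlapped a TEAD4 peak (chr15:63331125-63331520, score 323) and the second HA-YAP5SA peak of the locus (chr15:63331461-63331628, score 109, rank 468). The nearest to the start, 1.90 kb upstream (chr15:63332557-63333329, score 210), had no TEAD4 partner. Over the locus TEAD1 scores ran from 83.1 to 3140 with a median of 300, and 5 of the 13 TEAD1 peaks overlapped TEAD4. TPM1 was the single locus with 2 HA-YAP5SA peaks inside the window.

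TPM2 had its strongest occupancy upstream, in a run of 4 TEAD1 peaks between 43.2 and 38.1 kb from the start site (chr9:35690053). The site nearest the gene in that run had overlapping peaks in the TEAD1, TEAD4 and HA-YAP5SA lists, which come from separate libraries. These were the top TEAD1 peak (chr9:35727688-35728521, score 937, rank 1699), the top TEAD4 peak (chr9:35727880-35728397, score 357, rank 1917) and the HA-YAP5SA peak (chr9:35727981-35728238, score 174, rank 209). The TEAD1 and HA-YAP5SA centres were 5 bp apart. The TEAD1 peak nearest to the start lay 20.5 kb away (chr9:35669285-35669880, score 133), the largest such distance of the 9 loci. TEAD1 scores at TPM2 had a median of 180. The next protein-coding gene on the upstream side is TLN1, which encodes talin 1, a partner of vinculin at focal adhesions. Whether the run belongs to TPM2, TLN1 or another gene was not tested.

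TPM4 had few and low peaks. Its TEAD1 peaks were 10.7 kb (chr19:16188748-16189265, score 157, rank 21424) and 30.5 kb (chr19:16208560-16209008, score 138, rank 24102) downstream of the start site (chr19:16178317), both below the middle of the list. The only TEAD4 peak (chr19:16208764-16208966, score 108, rank 9339) overlapped the weaker of them. On GRCh38 the inner starts of TPM4 are almost as far downstream of the outermost as the TEAD1 peak at 10.7 kb, and distances to them were not measured. The 3 tropomyosin loci together held 24 TEAD1, 11 TEAD4 and 3 HA-YAP5SA peaks, all but 2 TEAD1 peaks and 1 TEAD4 peak of them at TPM1 and TPM2.

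Both alpha-actinin loci had a TEAD1 peak on the start site and, downstream, a stronger TEAD1 peak that overlapped an HA-YAP5SA peak. At ACTN1 the start site (chr14:69446083) was covered by a TEAD1 peak (chr14:69445921-69446912, score 130, rank 25446) and by a TEAD4 peak (chr14:69446044-69446821, score 103, rank 9721). Both were low in their lists. The top TEAD1 peak in the window lay 37.2 kb downstream (chr14:69408395-69409327, score 1094, rank 1150). It overlapped a TEAD4 peak (chr14:69408509-69409026, score 518, rank 910) and an HA-YAP5SA peak (chr14:69408609-69408984, score 172, rank 212). The ACTN1 start site thus had HA-YAP5SA sites on both sides, 1 downstream of it and 1 at the upstream edge described above. On GRCh38 the farthest inner start of ACTN1 is more than 37.2 kb downstream of the outermost, so the downstream site need not lie outside the gene. Of its 10 TEAD1 peaks, 8 were upstream, and their scores ran from 105 to 1094 with a median of 249.5.

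At ACTN4 the TEAD1 peak over the start site (chr19:39138327) was close to the bottom of the list (chr19:39137863-39138352, score 83.9, rank 36821), and no TEAD4 peak met it. The first strong site was the last of 3 TEAD1 peaks between 10.2 and 12.0 kb downstream. It was the top TEAD1 peak (chr19:39150013-39150687, score 772, rank 2595) and the top TEAD4 peak (chr19:39150169-39150536, score 457, rank 1197), with centres 2.5 bp apart. The HA-YAP5SA peak there (chr19:39150334-39150479, score 80.3) ranked 840 of 847, at the very bottom of its list, so its presence rests on the authors' threshold. A second TEAD1 peak in the top 10% stood 45.9 kb downstream (chr19:39183766-39184686, score 716, rank 2990) with TEAD4 and no HA-YAP5SA. The 4 TEAD4 peaks of ACTN4 all overlapped TEAD1.

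FLNA, whose product cross-links actin into networks and anchors membrane proteins to them, had the lowest top TEAD1 score. Its TEAD1 peaks had scores of 126, 107 and 123. The first of them was the highest and the nearest to the start site (chrX:153597119-153597729, rank 26107), 5.58 kb downstream of it (chrX:153603006). The top TEAD4 peak lay on it (chrX:153597295-153597729, score 127.5, rank 7874). Of the 4 TEAD4 peaks 2 met no TEAD1 peak. They stood 3.20 kb (chrX:153599670-153599941, score 83.1) and 32.6 kb (chrX:153570167-153570555, score 113) downstream. All 3 TEAD1 peaks were below the middle of the TEAD1 list.

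PALLD had the densest occupancy and no HA-YAP5SA. Its top TEAD1 peak (chr4:169407866-169408974, score 1151, rank 1004) and its top TEAD4 peak (chr4:169407945-169408493, score 732, rank 379) overlapped, 9.80 and 10.0 kb upstream of the start site (chr4:169418217). They stood inside a run of 5 TEAD1 peaks between 15.7 and 8.02 kb upstream, the longest run of the 9 loci. The start site itself was covered by a TEAD1 peak (chr4:169417753-169418363, score 168, rank 20095), and a TEAD4 peak (chr4:169417936-169418198, score 124, rank 8067) ended 19 bp short of it. The other TEAD1 peaks of PALLD in the top 10% lay 31.4 kb (score 788, rank 2505) and 54.4 kb (score 767, rank 2629) downstream, each with TEAD4. Over the 20 TEAD1 peaks the scores ran from 120 to 1151 with a median of 208, and 7 overlapped TEAD4. All 8 TEAD4 peaks of PALLD overlapped TEAD1, a pair of them on 1 wide TEAD1 peak 90.6 kb downstream (chr4:169508079-169509474).

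VCL had 3 TEAD1 peaks in the top 10%, as many as PALLD from 7 peaks, and none of them near the start site (chr10:75757872). The highest were far upstream, at 98.7 kb (chr10:75658721-75659560, score 934.5, rank 1719) and 91.2 kb (chr10:75666136-75667230, score 909, rank 1839). The top TEAD4 peak lay on the latter (chr10:75666298-75666897, score 486, rank 1056). PLAU, the gene of the urokinase plasminogen activator, is the next protein-coding gene on that side, and the target of these sites was not tested. The third, 58.3 kb downstream (chr10:75815551-75816830, score 800, rank 2428), had no TEAD4 peak. Nearest to the start was a TEAD1 peak centred 1.50 kb downstream (chr10:75758756-75759990, score 316, rank 10185). It overlapped a TEAD4 peak that was among the weakest of its list (chr10:75758868-75759239, score 80.6, rank 12106).

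MYL9 had its stronger peaks far from the start site (chr20:35169887), on the side of DLGAP4. The top TEAD1 peak (chr20:35103265-35104003, score 423, rank 7015) and the top TEAD4 peak (chr20:35103377-35103830, score 169.5, rank 5772) overlapped, 66.3 kb below the start site. A weaker pair stood 86.6 kb below it (TEAD1 score 210, TEAD4 score 134). The TEAD1 peak nearest the start (chr20:35172535-35173026, score 87.9, rank 35391) was 2.89 kb above it and had no TEAD4. No MYL9 peak reached the top 10% of either TEAD list.

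Across the loci, TEAD1 peaks that overlapped TEAD4 were 34 of 77 (44.2%, exact 95% binomial interval 32.8 to 55.9%), and 30.6% of the whole TEAD1 list did so. HA-YAP5SA was present at 5 of the 77 (6.49%, 2.14 to 14.5%), against 2.06% of the list. YAP was present at 0 of 77, which allows a share of up to 3.90% when a count of 0 is read as allowing 3 peaks (Clopper-Pearson limit 4.68%), and at 0.21% of the list. Of the 41 TEAD4 peaks, 6 overlapped HA-YAP5SA (14.6%, 5.57 to 29.2%), against 6.28% of the list. The sixth is the edge site of ACTN1. These intervals cover counting error over peaks only. The shares with TEAD4 and with HA-YAP5SA read somewhat above their lists, and the YAP share did not. For TEAD4 peaks with HA-YAP5SA, the 6.28% of the list lies within the interval. The genes were chosen with the lists in view, so the differences were not tested.

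A TEAD4 peak without TEAD1 was found 5 times among 41 (12.2%, 4.08 to 26.2%), while 2.9% of the TEAD4 list lacked TEAD1. FLNA had 2 of them, and TPM2, ACTN1 and MYL9 1 each. Their scores ran from 83.1 to 113, with a median of 94.2 that is close to the 95.6 of all TEAD4 peaks without TEAD1. They were thus low-ranking peaks here as elsewhere.

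TEAD1 peaks of high rank were found both near to and far from the 1 start site used per gene. None of the 3 peaks within 1 kb of that start was among them. RefSeq lists further starts for TPM2, TPM4, ACTN1, ACTN4 and PALLD, and distances to those were not measured. On GRCh38 the inner start of ACTN4 is about as far downstream of the outermost as its top 10% peak at 45.9 kb. Of the 77 TEAD1 peaks 12 were in the top 10% of their list (15.6%, 8.32 to 25.6%, where the whole list by construction has 10%). They belonged to 6 loci: 3 each to PALLD and VCL, 2 each to TPM1 and ACTN4, and 1 each to TPM2 and ACTN1. The closest of the 12 lay 3.40 kb from the start used, at TPM1, and their median distance was 42.0 kb, against 39.8 kb for all 77. Of the 10 TEAD1 peaks between 1 and 10 kb from the start used 2 were in the top 10%, and of the 30 between 50 and 100 kb 5 were. Of the 12, 11 overlapped TEAD4 (97% of the top 10% of the whole list do) and 5 overlapped HA-YAP5SA (17.3% do). For TEAD4, 6 of the 41 peaks were in the top 10% (14.6%, list 9.99%), the nearest 10.0 kb upstream of PALLD. For HA-YAP5SA, 0 of 5 were in the top 10% (list 9.92%). With so few peaks, 0 of 5 allows up to 60% when read as 3 peaks (Clopper-Pearson limit 52.2%). The 3 TEAD1 peaks centred within 1 kb of the start used, at ACTN1, ACTN4 and PALLD, had scores of 130, 83.9 and 168, all below the list's median of 177. Peaks between 50 and 100 kb had a median score of 275 (30 peaks), and those between 1 and 10 kb one of 168 (10 peaks).

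**Figure D4:**
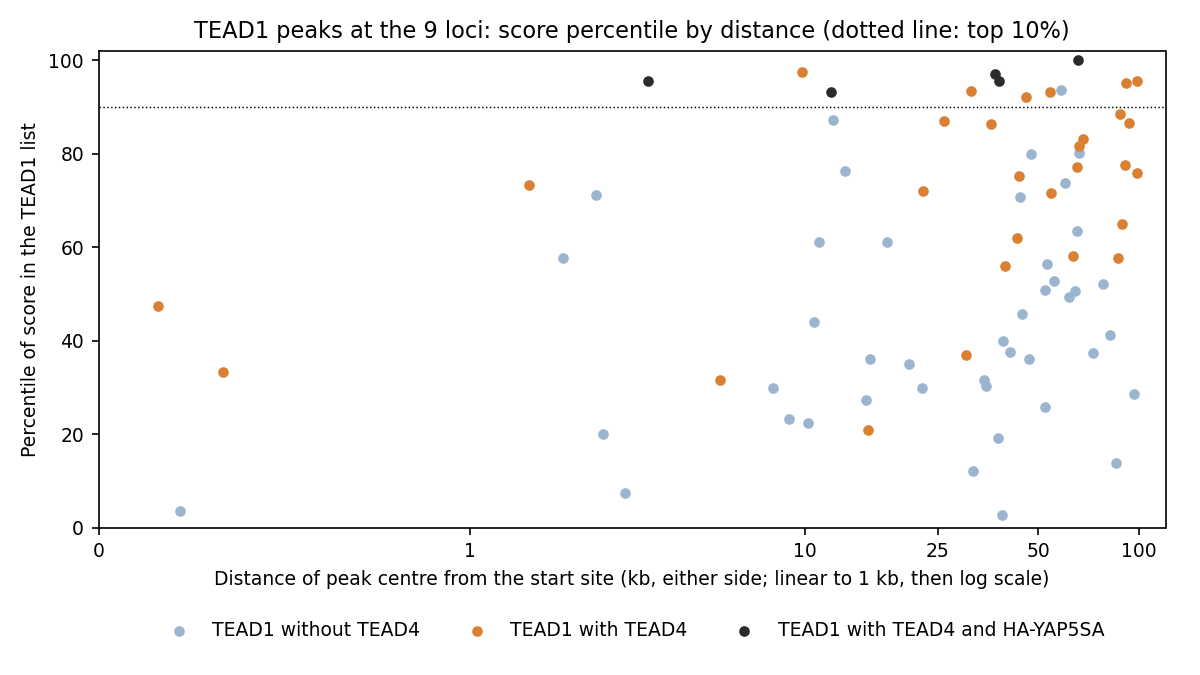
Percentile of the score in the whole TEAD1 list (y axis) against the distance of the peak centre from the start site (x axis, kb, either side, linear to 1 kb and logarithmic beyond) for the 77 TEAD1 peaks, coloured by whether a TEAD4 or an HA-YAP5SA peak overlaps. The 3 points within 1 kb lie below the 50th percentile, and the points above the dotted line at the top 10% begin at 3.40 kb. Distances are to the 1 start site used per gene.

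Per kb, TEAD1 peaks were densest close to the start sites used. There were 0.167 per kb and locus within 1 kb, 0.0617 between 1 and 10 kb and 0.0333 between 50 and 100 kb. The first of these values rests on 3 peaks. Over the 8 genes with a strand, 38 TEAD1 peaks were upstream and 34 downstream, close to equal numbers. TEAD1 peaks at the loci also stood close together: 38 of 77 were within 5 kb of another TEAD1 peak (49.4%, 37.8 to 61.0%), compared with 30.8% of the list. The 5 kb distance was set after the positions had been seen, and dense windows such as PALLD weigh most in that count.

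The 5 HA-YAP5SA peaks all overlapped both TEAD1 and TEAD4, as did 95.2% and 92.4% of their list, singly counted. None of the 5 overlapped YAP, against 6.49% of the list, and 0 of 5 allows up to 60% when read as 3 peaks. Their centres were 5 to 195 bp from the TEAD1 centre and 29 to 222 bp from the TEAD4 centre. At TPM1, TPM2, ACTN1 and ACTN4 one of them lay on the top TEAD1 peak of the window. The TEAD1 peaks under HA-YAP5SA had scores of 772 at ACTN4, 937 and 3140 at TPM1, 937 at TPM2 and 1094 at ACTN1. Of the 72 TEAD1 peaks without HA-YAP5SA, 5 had a score of 772 or more, 3 at VCL and 2 at PALLD, with 1151 at PALLD as the highest.

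TEAD1 and TEAD4 scores rose together over the shared sites. Overlapping TEAD1 and TEAD4 peaks formed 35 pairs, with a median of 64 bp between centres, and the Spearman correlation of their scores was 0.81. It was 0.71 over all 11841 pairs of the lists. This is a description across sites of 2 libraries, which share the cell line and its genome, and sites are no replicates. The top TEAD1 peak and the top TEAD4 peak of a window were the same site at 6 of 9 loci. The exceptions were TPM4, VCL and ACTN1. At ACTN1 the top TEAD4 peak was the site at the window's edge.

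**Figure D5:**
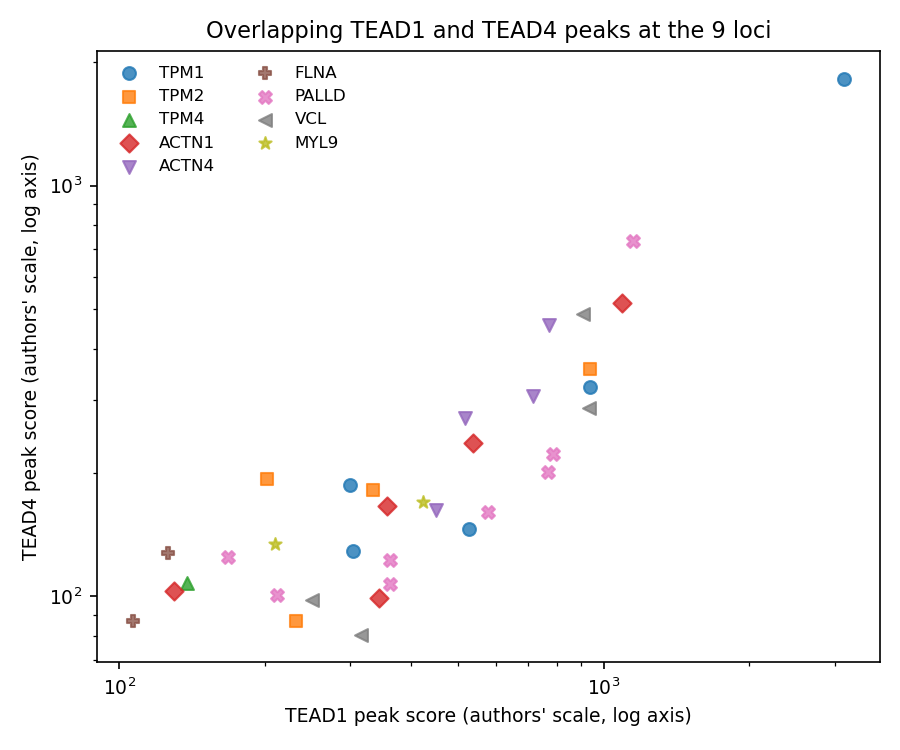
Score of the TEAD4 peak (y axis) against the score of the TEAD1 peak it overlaps (x axis), both on log axes in the authors' unstated unit, for the 35 pairs at the 9 loci, with a marker per gene. The pairs rise together, from FLNA at the lower left to the TPM1 site at 3140 and 1822 at the upper right.

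Start sites covered by a peak, or less than 1 kb from the edge of one, were those of ACTN1, ACTN4, PALLD and VCL, and the promoter bases of these genes were examined for the letters TEAD factors favour. RefSeq promoter sequences matched 8 of the 9 genes; MYL9 had no entry. They follow GRCh38 and were not placed against the hg19 peaks, so a listed start may differ from the one used for distances. For each gene the outermost start is shown, from 250 bases before it up to the base before it, as 1 rule for all genes. A second window of PALLD is shown because it holds more TEAD letters than any other of the 17 windows of the 8 matched genes. It was thus picked for its letters and not for a peak. On GRCh38 it lies more than 100 kb downstream of the outermost window, and whether a peak lies there was not examined. All run 5′ to 3′ on the gene's strand. Capitals mark GGAATG or its reverse complement CATTCC.
VCL (GRCh38 chr10:73997866-73998115, plus strand): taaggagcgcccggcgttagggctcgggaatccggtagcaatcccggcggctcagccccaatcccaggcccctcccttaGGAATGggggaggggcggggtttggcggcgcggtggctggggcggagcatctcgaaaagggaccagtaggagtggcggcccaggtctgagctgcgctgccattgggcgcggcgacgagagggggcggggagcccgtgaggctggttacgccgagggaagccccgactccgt
ACTN1 (GRCh38 chr14:68979303-68979552, minus strand): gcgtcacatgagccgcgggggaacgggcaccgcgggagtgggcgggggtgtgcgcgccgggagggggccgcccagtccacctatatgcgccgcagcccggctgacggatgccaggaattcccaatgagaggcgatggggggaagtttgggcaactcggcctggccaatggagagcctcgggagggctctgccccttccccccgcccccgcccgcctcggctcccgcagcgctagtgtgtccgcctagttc
ACTN4 (GRCh38 chr19:38647399-38647648, plus strand): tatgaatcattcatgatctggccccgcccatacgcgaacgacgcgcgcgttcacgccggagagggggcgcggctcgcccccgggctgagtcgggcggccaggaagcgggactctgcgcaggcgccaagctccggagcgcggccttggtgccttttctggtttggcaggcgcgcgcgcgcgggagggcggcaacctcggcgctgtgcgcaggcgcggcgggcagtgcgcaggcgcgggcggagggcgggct
PALLD, outermost (GRCh38 chr4:168496802-168497051, plus strand): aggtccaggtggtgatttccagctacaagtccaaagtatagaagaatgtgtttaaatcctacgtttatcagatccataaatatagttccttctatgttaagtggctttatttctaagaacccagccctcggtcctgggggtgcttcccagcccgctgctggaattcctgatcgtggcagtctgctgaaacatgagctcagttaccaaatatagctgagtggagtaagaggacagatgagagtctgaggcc
PALLD, inner (GRCh38 chr4:168631328-168631577, plus strand): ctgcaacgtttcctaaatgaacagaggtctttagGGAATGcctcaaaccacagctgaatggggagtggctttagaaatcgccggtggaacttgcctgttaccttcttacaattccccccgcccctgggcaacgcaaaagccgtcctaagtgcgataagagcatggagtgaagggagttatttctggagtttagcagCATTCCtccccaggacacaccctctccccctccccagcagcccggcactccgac

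The VCL window held GGAATG once, 171 to 166 bases before the listed start. The outermost windows of ACTN1, ACTN4 and PALLD held neither GGAATG nor CATTCC. The inner window of PALLD held one of each, and an inner window of ACTN1 held CATTCC. In all, 3 of the 17 windows of the 8 matched genes had the letters, and 11.9% of the 35116 RefSeq windows of this length do. These 17 include windows of genes without a peak near the start. The AP-1 letters TGACTCA or TGAGTCA, which need no separate search of the other strand since each is the reverse complement of the other, were in 1 of 17 windows, another inner start of PALLD (4.2% of all windows). The CArG box, the element of the serum response factor that serves many actin genes, was in 3 of 17, at TPM4, FLNA and an inner start of ACTN1 (1.16% of all windows). A match is a description of letters and not a site of binding, and these windows do not reach the peaks far from the start sites.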

How the data were processed

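HuCCT1 chromatin was cross-linked, sonicated and precipitated, per the labels' protocols. The submitters' processing notes name Bowtie2 and the hg19 build. Peaks carry names that start with MACS, per the deposited lists; no source used here gives the caller's version, threshold or control. Each deposited list comes from 1 library and gives a score per peak on an unstated scale, so the score was used only within a list. Lists without a header were read as counting starts from 0 and raised by 1, which leaves starts uncertain by 1 bp.

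The members and lists were chosen with earlier results of these data known. Peaks were joined to a gene when the centre was within 100 kb of the hg19 start site given for it. Peaks named are the highest TEAD1 and TEAD4 peak of each locus, the TEAD1 peak nearest its start, and all HA-YAP5SA peaks; others named were chosen after their values were seen. Overlap meant at least 1 bp. Shares have exact Clopper-Pearson 95% intervals. A share of 0 among the peaks of a list at the loci is given with the limit that 3 peaks would make. No test between libraries was possible with 1 per antibody. A planned count over further actin genes needed hg19 start sites and was not run, and no exon or intron was assigned. Promoter windows and neighbouring genes come from RefSeq (GRCh38.p14). The window function was tested on made-up peaks at its limits. The overlap function was tested on slightly shifted TEAD1 peaks, with others moved to a chromosome without peaks. That check covers clear cases only. Alternatives were narrower windows, any base within 100 kb, stricter overlaps, a higher score threshold and ranking by width. Python 3.11.15, pandas 2.3.3, SciPy 1.17.1 and matplotlib 3.10.9 were used.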

Additional observations from a re-analysis of the deposited data

How the results depend on the processing

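Counts of peaks at the 9 loci followed the window and the score threshold, as their construction fixes. With centres within 50 kb there were 47 TEAD1 and 21 TEAD4 peaks, and within 25 kb 26 TEAD1, 10 TEAD4 and 2 HA-YAP5SA peaks, in place of 77, 41 and 5. Of peaks that reached the median score of their list there were 46 for TEAD1, 19 for TEAD4 and 3 for HA-YAP5SA. The shares of TEAD1 peaks with TEAD4, with HA-YAP5SA and in the top 10%, and of HA-YAP5SA peaks with TEAD1, remained within their 95% intervals under every alternative run for each of them. Most alternatives reuse the same peaks and the intervals are wide, so this outcome was likely beforehand. It does not show that a share stays above that of its whole list. The share with TEAD4 ranged from 34.6% (25 kb) to 44.9% (any base within 100 kb), and the share with HA-YAP5SA from 6.49% to 8.51%. Ranking by width put 20.8% of the TEAD1 peaks in the top 10%, in place of 15.6%. The narrower windows lowered that share, to 14.9% within 50 kb and 11.5% (3 of 26) within 25 kb, where the whole list has 10%. With 1 library per antibody and unknown depth, an absent peak shows only that none passed the authors' threshold.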
